A study of Mus musculus with 2 samples.

Results

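Smooth muscle cells contract by sliding myosin along filaments of a dedicated actin, and several of the proteins they use for this are also made by epithelial and mesenchymal cells that move or pull on their neighbours. In this report 10 mouse genes of that kind were described in 2 single-cell RNA sequencing libraries of the developing lower jaw. They are Acta2, which encodes smooth muscle alpha-actin, Tagln, which encodes the actin-binding protein transgelin, Cnn1, which encodes calponin 1, Myl9, which encodes a regulatory light chain of myosin II, and Tpm1, which encodes an alpha-tropomyosin that winds along actin filaments. The others are Csrp1, a LIM-domain protein of the actin cytoskeleton, Pdlim5, a PDZ and LIM scaffold of actin bundles, Nebl, whose product nebulette is a nebulin-family protein, Limk2, a kinase that phosphorylates the actin-severing protein cofilin, and Rhov, a small GTPase. They were chosen by name, as 10 of the 27998 genes listed at E12.0 and of the 31053 listed at E9.5, and all 10 were present in both lists. The study itself named Limk2, Pdlim5, Csrp1, Myl9, Rhov, Nebl, Tagln and Acta2 from these same libraries, so their levels in periderm are not independent evidence of that choice.

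The E12.0 library held GFP+ cells sorted from mandibular epithelium, peeled off the mesenchyme, of 6 littermate embryos of the genotype K14Cre;R26mT/mG, pooled. In these embryos a keratin 14 promoter drives Cre, and a cell in which Cre has acted, with its descendants, carries membrane GFP. The E9.5 library held unsorted cells of mandibular arches, epithelium and mesenchyme together, of 8 pooled embryos of the same genotype and of another single litter. Each stage was therefore 1 library with no replicate and no treatment, embryos could not be told apart, and stage, sort and library cannot be told apart in any comparison between E12.0 and E9.5.

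Periderm is the flat outermost cell layer of embryonic epithelia. It is made of cells joined by tight junctions and desmosomes, it keeps facing oral surfaces from sticking to each other, and it is later shed. Like other surface epithelial cells, periderm cells carry belts of actin and myosin at their junctions.

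Deposited values were UMI counts, the number of distinct transcript molecules seen per gene and cell. At E12.0 the 11663 barcodes summed to 78911671 UMIs, and 11355 cells with 200 to 5500 genes and at most 10% mitochondrial UMIs were kept, with a median of 6349 UMIs. At E9.5 the 14293 barcodes summed to 208540526 UMIs, and 12744 cells were kept, with a median of 13460.5 UMIs. The 2 libraries shared 51 barcodes. Levels are in CPM: the summed UMIs of a gene in a group, divided by all UMIs of the group and multiplied by 1000000. An exact 95% Poisson interval stands in square brackets where given, and all intervals cover counting error only. UMIs were read from 3′ ends, so isoforms of Tpm1, Nebl and Pdlim5 are summed and levels of different genes are not ranked against each other. With 1 library per stage there is no test and no p-value. A gene was called higher in a group by the size criteria of the study's own marker search, a 1.3-fold difference or more together with detection in 15% or more of the group's cells, and lower by the same criteria turned around.

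The genes lie on 6 chromosomes. Positions are from the GENCODE annotation of GRCm38, where all 10 are protein-coding. Acta2 (ENSMUSG00000035783) spans chr19:34241090-34255590 on the minus strand, and Tagln (ENSMUSG00000032085) spans chr9:45929619-45936058 on the minus strand. Of the 1988 exonic bases of Tagln, 1241 lie within the antisense gene Gm48529 and 108 within Pcsk7 on the opposite strand, and it was not stated whether counting used the strand. Chromosome 9 also holds Cnn1 (ENSMUSG00000001349, chr9:22099216-22109630, plus strand) and Tpm1 (ENSMUSG00000032366, chr9:67022590-67049406, minus strand, with 21 annotated transcripts). Chromosome 2 holds Myl9 (ENSMUSG00000067818, chr2:156775420-156781658, plus strand), Rhov (ENSMUSG00000034226, chr2:119269201-119271272, minus strand) and Nebl (ENSMUSG00000053702, chr2:17343909-17731464, minus strand). Csrp1 (ENSMUSG00000026421) spans chr1:135720061-135752232 on the plus strand, Limk2 (ENSMUSG00000020451) chr11:3344256-3409189 on the minus strand and Pdlim5 (ENSMUSG00000028273) chr3:142239590-142395696 on the minus strand. No exonic base of the genes other than Tagln lay within another annotated gene.

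The promoter of Acta2 is shown with those of Myl9 and Tpm1, which were at higher levels in periderm cells with Acta2 or Tagln, and of Rhov, which was at a lower level there, as described further on. In smooth muscle, serum response factor binds a motif called the CArG box in the promoters of many contractile genes, and TEAD factors bind GGAATG. The 250 bases before the RefSeq start (GRCm38.p6) are printed 5′ to 3′ on the strand of the gene, from chr19:34255374-34255623 (Acta2), chr2:156775214-156775463 (Myl9), chr9:67049214-67049463 (Tpm1) and chr2:119271227-119271476 (Rhov). Capitals mark a CArG box with at most 1 mismatch in its outer 4 letters, or GGAATG, on either strand.
Acta2: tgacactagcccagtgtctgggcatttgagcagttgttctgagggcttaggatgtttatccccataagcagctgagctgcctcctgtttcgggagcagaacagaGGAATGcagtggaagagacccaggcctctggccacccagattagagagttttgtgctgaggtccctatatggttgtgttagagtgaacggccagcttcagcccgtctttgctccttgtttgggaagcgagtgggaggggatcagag
Myl9: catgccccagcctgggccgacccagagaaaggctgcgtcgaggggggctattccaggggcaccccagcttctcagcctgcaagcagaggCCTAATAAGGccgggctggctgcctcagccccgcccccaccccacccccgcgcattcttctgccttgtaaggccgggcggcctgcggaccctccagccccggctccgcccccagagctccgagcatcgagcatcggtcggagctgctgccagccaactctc
Tpm1: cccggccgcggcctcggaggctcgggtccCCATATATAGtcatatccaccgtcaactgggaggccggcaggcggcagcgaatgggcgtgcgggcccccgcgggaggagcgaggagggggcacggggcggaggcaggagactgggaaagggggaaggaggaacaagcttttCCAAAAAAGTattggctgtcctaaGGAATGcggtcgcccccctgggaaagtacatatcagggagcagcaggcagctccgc
Rhov: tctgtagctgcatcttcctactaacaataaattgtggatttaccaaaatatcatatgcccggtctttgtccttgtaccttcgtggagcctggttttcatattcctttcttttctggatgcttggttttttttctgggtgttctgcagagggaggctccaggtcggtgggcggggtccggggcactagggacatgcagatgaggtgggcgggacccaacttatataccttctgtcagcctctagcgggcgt

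Over the 300 bases from 250 before to 50 after the start, RefSeq promoters were found for 9 of the 10 genes, all but Tagln. These were 16 promoters in all, among 32851 promoters. A CArG box without mismatch was present in 1.63% of all promoters and in 2 of the 16, a promoter of Nebl (at -162) and that of Myl9 (at -161). With 1 outer mismatch allowed the share was 13.9% of all promoters and 4 of the 16, adding Tpm1 (at -221 and -80) and Limk2 (at -220). The search allowed no mismatch in the inner A or T letters of the box. The Acta2 letters ccctatatgg and ccttgtttgg, each with 1 inner mismatch, were therefore neither counted nor marked. GGAATG was present in 14.7% of all promoters and in 3 of the 16, of Acta2 (at -146), Tpm1 (at -56) and Nebl (at -230). The E-box CANNTG was present in 72.3% of all promoters and in 14 of the 16. In the Rhov window none of the CArG or GGAATG letters was found. These matches describe letters and not bound sites.

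Periderm cells at E12.0 were taken as the 430 kept cells (3.79%) with at least 3 UMIs in sum of Ppl, Pkp1 and Grhl3. These encode 2 desmosome-associated proteins and a transcription factor of surface epithelium. The study found that its cluster with such markers held suprabasal cells as well as periderm, so the gate can hold both. In this report periderm at E12.0 means this gate. Of 13 other periderm and suprabasal markers, 10 met the size criteria as higher in them, among them Zfp750, an epidermal differentiation factor (115 CPM against 2.61 in other cells), Krt17, a keratin of periderm (150 against 25.3), and Cldn4, a tight junction protein (86.0 against 19.1). The 3 that did not were Krt4, Krt6a and Gabrp, each with UMIs in under 15% of the cells. Of 5 epithelial markers Krt14 (1293 against 653 CPM) and Krt5 (878 against 484), keratins best known from the basal layer, and the adhesion gene Cdh1 met the criteria as higher, and the basal cell factor Trp63 as lower (184 against 256). Periderm cells had a median of 6859.5 UMIs, against 6336 in the 10925 other cells, and Scrublet called 13.3% of them doublets, against 5.53%.

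None of the 10 genes met the size criteria as lower in E12.0 periderm, where 8.34% of 6088 genes did. Just 2 of the 10 had a UMI in the 15% of other cells needed for that call. As higher, 9 of the 10 genes met the criteria, where 11.8% of the 6438 genes with a UMI in at least 15% of periderm cells did so. Because the share of cells is taken in periderm itself, and because 8 of the genes had been picked from these cells, the count is given as a description. The median log2 ratio of the 10 genes was 2.46, against -0.01 over all genes with at least 50 UMIs in both groups. Ordered by fold among the 6438 genes, Rhov was rank 1, Acta2 4, Tagln 7, Nebl 9, Myl9 32, Csrp1 41, Limk2 50, Pdlim5 66 and Tpm1 332.

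Among the smooth-muscle-type genes, Acta2 was at 82.4 CPM [72.8 to 92.8] in periderm and 3.80 in other cells, from 269 and 284 UMIs. The log2 ratio was 4.44 (95% interval 4.19 to 4.68), a 21.7-fold difference. Tagln was at 187 CPM [172 to 202] against 14.4, with a log2 ratio of 3.70 (3.55 to 3.84). Both transcripts were found in few of the cells. Acta2 had a UMI in 16.0% of periderm cells and 1.68% of the others, and Tagln in 25.8% and 6.72%. Cnn1, another classical smooth muscle marker, had 2 UMIs in periderm and 18 in other cells, and its log2 ratio of 1.34 had an interval from -1.81 to 3.41, so no difference was detectable at this depth.

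Genes of the myosin and filament machinery that many cell types use differed by less. Myl9 was at 99.8 CPM [89.3 to 111] in periderm against 16.4, a log2 ratio of 2.60 (2.42 to 2.78), with a UMI in 35.3% against 9.27% of cells. Tpm1 was at 1173 CPM [1136 to 1211] against 705, a log2 ratio of 0.74 (0.69 to 0.78), with a UMI in 94.9% against 92.2%. Tpm1 was thus found in most cells of both groups and differed in level, while Acta2 and Tagln differed both in how many cells had them and in how many UMIs those cells held. Of the cells with Tagln, 40 of 111 in periderm and 14 of 734 elsewhere had 5 UMIs or more.

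The LIM-domain and nebulin-family genes were all higher in periderm. Csrp1 was at 82.4 CPM [72.8 to 92.8] against 16.5, with a log2 ratio of 2.32 (2.12 to 2.51), and Pdlim5 was at 67.4 CPM [58.7 to 76.9] against 18.5, with 1.87 (1.65 to 2.07). Nebl was at 152 CPM [139 to 166] against 12.1, a log2 ratio of 3.66 (3.50 to 3.82), and was found in 47.7% of periderm cells against 6.96%. Nebulette is best known from the Z-disc of heart muscle, and the sorted cells here were epithelial.

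The 2 signalling genes were Limk2 and Rhov. Limk2 was at 198 CPM [183 to 214] in periderm against 47.9, a log2 ratio of 2.05 (1.93 to 2.17), with a UMI in 71.4% of cells against 26.8%. Rhov was at 45.6 CPM [38.6 to 53.6] against 0.696, a log2 ratio of 6.03 (5.57 to 6.52) from 149 and 52 UMIs, with a UMI in 22.6% of cells against 0.394%. Only 43 of the 10925 other cells had any Rhov UMI. The 430 periderm cells, with 4.19% of all UMIs, held 74.1% of the library's Rhov UMIs, 48.6% of Acta2, 36.2% of Tagln and 35.6% of Nebl, but 6.79% of Tpm1.

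**Figure D1:**
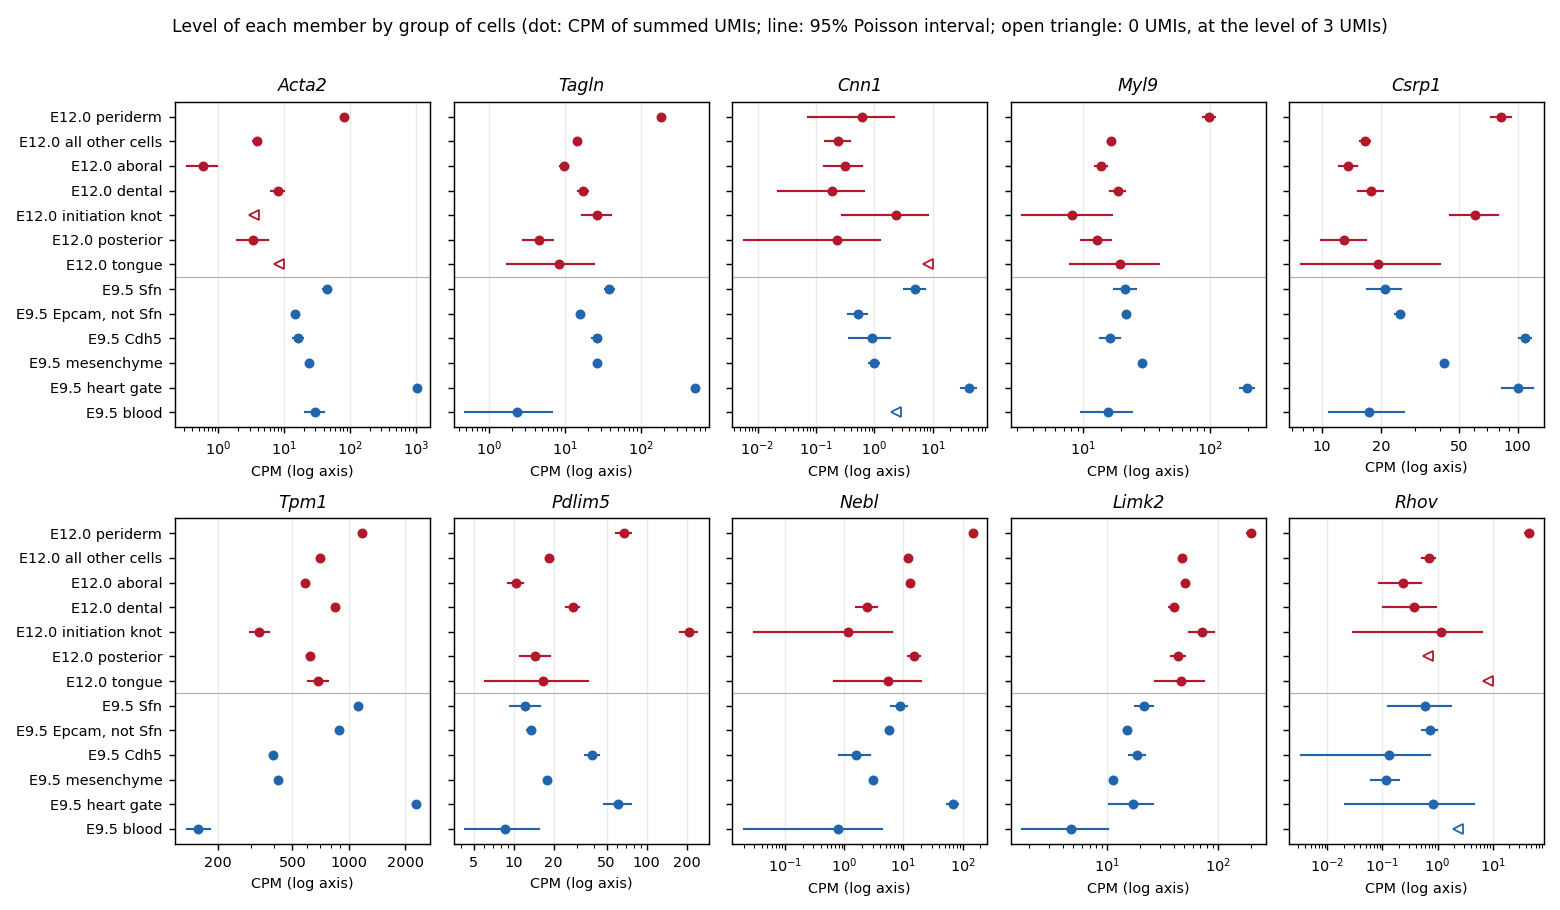
CPM of each of the 10 genes (log axis) in 7 groups of E12.0 cells (red) and 6 of E9.5 cells (blue), with 95% Poisson intervals as lines. An open triangle stands for a group with 0 UMIs, drawn at the level of 3 UMIs. Acta2 is at 82.4 CPM in E12.0 periderm and 1050 in E9.5 cells of the heart gate, Rhov is at 45.6 in periderm and at most 1.16 in the other groups with a UMI of it, and Pdlim5 is at 207 in the E12.0 initiation knot cells.

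Depth and doublets were set beside these values. When each cell was thinned to 4100 UMIs, leaving 396 periderm and 9935 other cells, Acta2 was found in 12.4% against 1.01%, Tagln in 21.5% against 4.71%, Nebl in 35.1% against 4.26% and Rhov in 16.2% against 0.272% of cells. Limk2 was found in 50.8% against 18.1%, Pdlim5 in 25.3% against 6.72%, Myl9 in 25.3% against 6.18% and Csrp1 in 24.2% against 5.88%. The order of the groups held for each of these genes. At 12.4% Acta2 falls under the 15% criterion, and 8 genes met the criteria when gate and genes were both read in thinned cells. Without the called doublets the log2 ratios were 4.54 for Acta2, 3.88 for Tagln, 6.21 for Rhov and 3.76 for Nebl, as large as with them. Without the 56 periderm cells that had at least 2 UMIs of 33 marker genes of other cell types they were 4.43 for Acta2, 3.66 for Tagln and 3.55 for Nebl. Those marker genes include Notch3, which epithelial cells also make, so the 56 cells need not hold material of other cell types.

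Marker genes of other cell types were set beside the values in the sorted cells. The 7 mesenchyme markers summed to 7.04 CPM in periderm and 9.76 in other cells, with 3 of the 7 at 0 in periderm. Endothelial markers summed to 1.22 CPM against 1.38 (4 of 5 at 0), heart and skeletal muscle markers to 2.76 against 1.78 (5 of 8 at 0) and blood markers to 0.306 against 0.0134 (5 of 6 at 0). The 7 smooth muscle and pericyte markers summed to 70.1 CPM against 13.6. Of that sum Notch3, a Notch receptor also made by epithelial cells, gave 65.5 against 10.3, and 3 of the 7 were at 0. Myh11, the smooth muscle myosin heavy chain, was at 3.06 CPM against 0.134, from 10 UMIs in each group, a log2 ratio of 4.51 (3.09 to 5.94), and the median log2 ratio of this list was 2.66. Immediate-early genes, which dissociation can switch on, summed to 1592 CPM in periderm and 1077 in other cells with 4 of 7 meeting the criteria as higher, and their part in the results was not tested.

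Along the UMIs of the gate genes, the values of the 10 genes did not all rise through every bin. Limk2 was higher in each of the 7 bins than in the one before, from 45.7 CPM in the 9542 cells with no gate UMI through 93.8 at 2 and 144 at 3 UMIs to 296 in the 35 cells with 10 or more. Nebl was at 10.8, 43.2, 116 and 242 CPM and Rhov at 0.217, 15.3, 18.8 and 69.2 CPM in the same 4 bins. Acta2 instead was at 3.15, 26.9 and 63.5 CPM with 0, 2 and 3 gate UMIs, was highest at 108 in the 151 cells with 4 or 5, and was at 66.1 in cells with 10 or more. Tagln was highest at 226 CPM [197 to 259] in the 122 cells with 6 to 9 gate UMIs and was at 154 [114 to 204] with 10 or more. For both genes these intervals overlap, so a fall in the last bin is not shown. Cells with 2 gate UMIs, just outside the gate, were thus above cells with none for all of these genes. The gate sums counts, so cells with more UMIs pass it more easily, and the median UMI count per cell was 6298 in the lowest and 8180 in the highest bin.

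**Figure D2:**
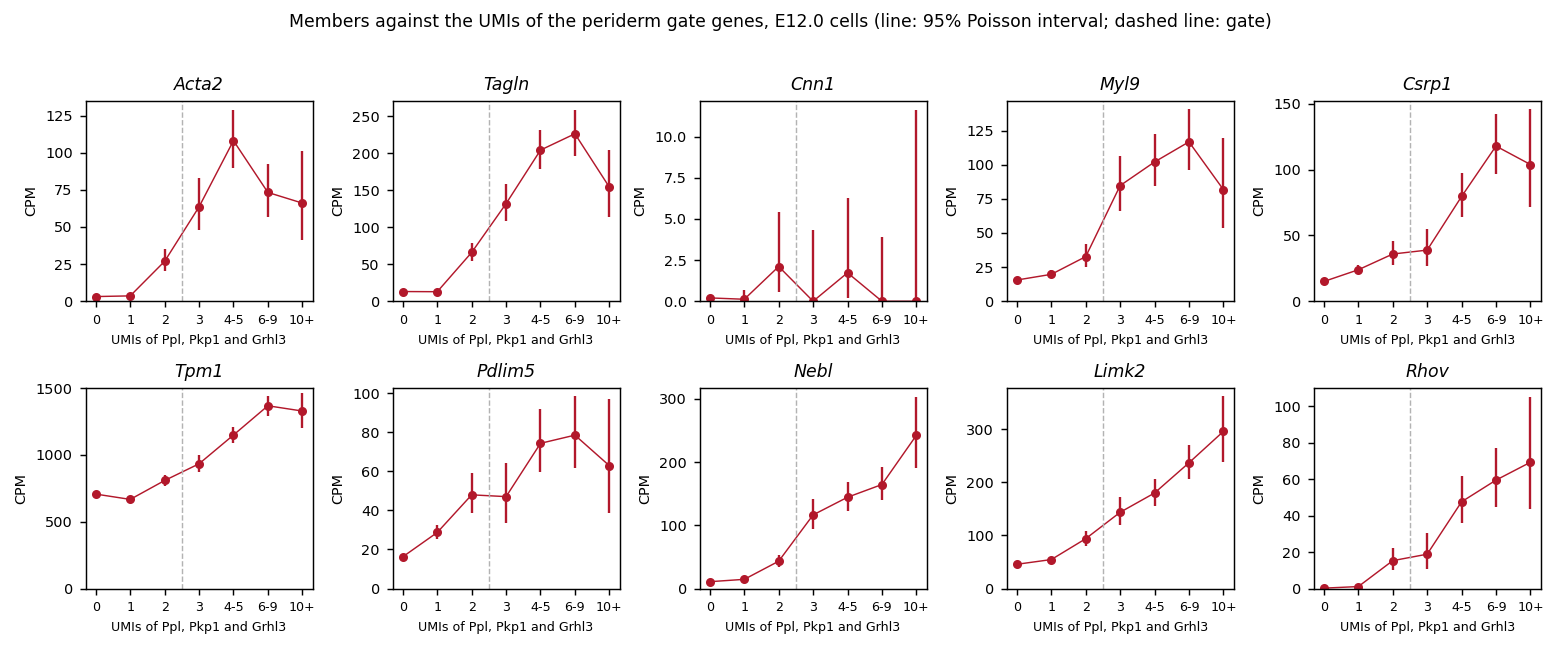
CPM of each gene in E12.0 cells against the summed UMIs of Ppl, Pkp1 and Grhl3 per cell, in 7 bins, with 95% Poisson intervals as lines and the periderm gate as a dashed line between 2 and 3 UMIs. Limk2 climbs through every bin to 296 CPM. Acta2 is highest at 108 CPM in the bin of 4 and 5 UMIs, with an interval that overlaps that of the last bin. Cnn1 is at most 2.11 CPM in any bin.

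Outside periderm the genes differed between the zones of the E12.0 epithelium, which were gated by zone genes in cells that were not periderm. Pdlim5 was at 207 CPM [178 to 240] in the 133 cells of the initiation knot, the tooth signalling centre gated by Shh, and at 27.8 in dental, 14.6 in posterior and 10.3 in aboral cells. That is above its 67.4 CPM in periderm, and the intervals of knot and periderm do not overlap. Csrp1 was also higher in the knot, at 60.5 CPM against 16.5 in all cells outside periderm. Tpm1 had the opposite order, with 333 CPM in the knot and 840 in dental cells. Acta2 had 0 UMIs in the knot, where 3 UMIs would be 3.49 CPM, and was at 8.02 CPM in dental, 3.42 in posterior and 0.587 in aboral cells. Nebl was lower in dental cells (2.43 CPM) than in aboral (13.1) and posterior cells (15.3).

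Zone genes also split the periderm cells. The 72 periderm cells that passed the dental gate had Acta2 at 125 CPM [99.0 to 156] and Tagln at 307, and the 36 that passed the aboral gate had 35.3 and 91.1. For Nebl the order was the reverse, with 75.4 CPM [55.4 to 100] in dental and 118 [84.0 to 160] in aboral periderm cells, intervals that overlap. Rhov had 18 UMIs in dental and 2 in aboral periderm cells. Scrublet called 47.2% of the aboral and 12.5% of the dental periderm cells doublets, and its part in these differences was not tested.

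**Figure D3:**
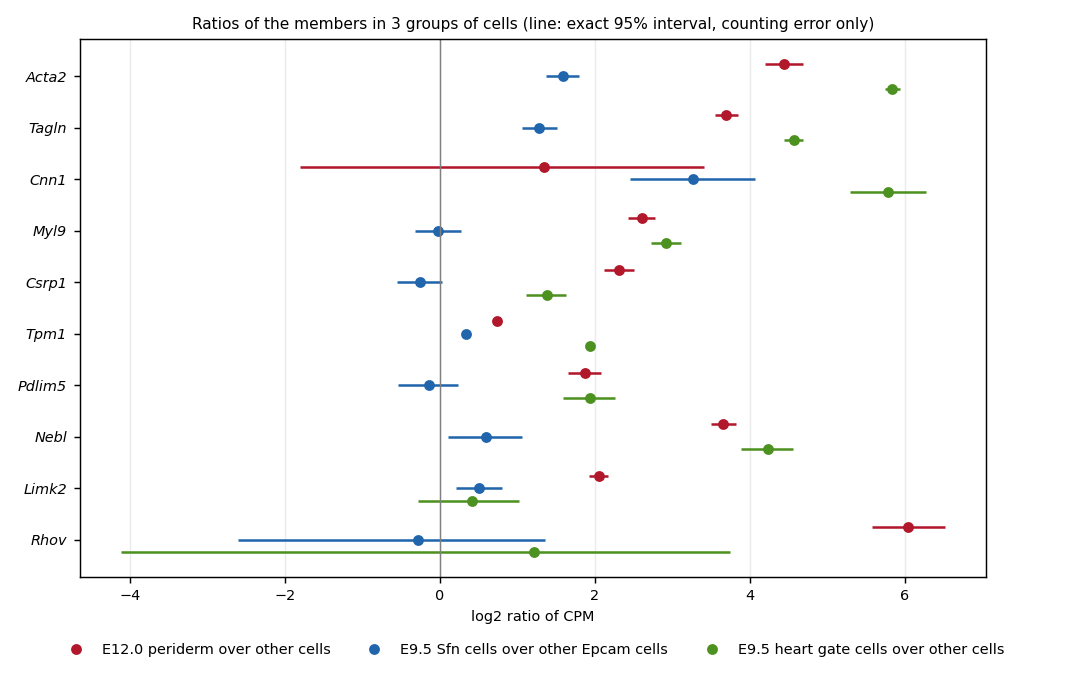
Log2 ratio of CPM for each gene in E12.0 periderm over other cells (red), E9.5 Sfn cells over other Epcam cells (blue) and E9.5 heart gate cells over other cells (green), with exact 95% intervals as lines that cover counting error only. The red points lie at 0.74 or above for every gene, with an interval that spans 0 for Cnn1, while in blue Acta2 (1.58), Tagln (1.28) and Cnn1 (3.27) stand apart from genes near 0 such as Myl9 (-0.02).

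Within periderm, Acta2 and Tagln were carried by a small set of cells. Acta2 had a UMI in 69 of 430 cells and at most 18 UMIs in a cell, and 12 cells held 50% of its UMIs. Tagln had a UMI in 111 cells and at most 48 in a cell, and 16 cells held 50%. Limk2 was spread far more evenly, with a UMI in 307 cells, at most 9 in a cell and 83 cells holding 50%. Nebl was found in 205 cells (at most 12 UMIs, 51 cells holding 50%), and Rhov in 97 (at most 5, 30 cells). The 5 periderm cells with the most UMIs of each gene were then left out, with no cell outside periderm dropped. This moved the log2 ratio from 4.44 to 4.00 for Acta2, from 3.70 to 3.33 for Tagln and from 2.05 to 2.00 for Limk2.

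The same cells tended to hold both transcripts. Among the 396 thinned periderm cells, 38 had both Acta2 and Tagln where the product of their shares predicts 10.5, a ratio of 3.61 (95% interval 2.59 to 4.87). Acta2 and Myl9 were found together in 32 cells, a ratio of 2.59 (1.79 to 3.59), and Tagln and Myl9 in 47, a ratio of 2.19. Csrp1 joined them with ratios of 1.94 for Acta2, 1.84 for Tagln and 1.65 for Myl9. Of 36 pairs with at least 5 cells predicted, 7 had an interval above 1 and 0 below 1, and the median ratio over the pairs was 1.10. The pair outside the Acta2, Tagln, Myl9 and Csrp1 set was Rhov and Nebl, found together in 36 cells where 22.5 were predicted, a ratio of 1.60 (1.14 to 2.18). Limk2 with Rhov had 1.35, with an interval from 0.998 to 1.78. These ratios describe cells of 1 library. A ratio cannot exceed 1 over the larger share, so it can be greater for rarer genes and is not compared between groups. Of the 49 thinned periderm cells with Acta2, 38 also had Tagln. Among the other E12.0 cells, thinned, 9 of 28 pairs with at least 5 cells predicted also had an interval above 1. These included Acta2 and Tagln, each with Myl9 and with Csrp1, and Myl9 with Csrp1, so these pairs were not particular to periderm. Acta2 with Tagln was not among the 9, but was among the pairs above 1 there without thinning.

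**Figure D4:**
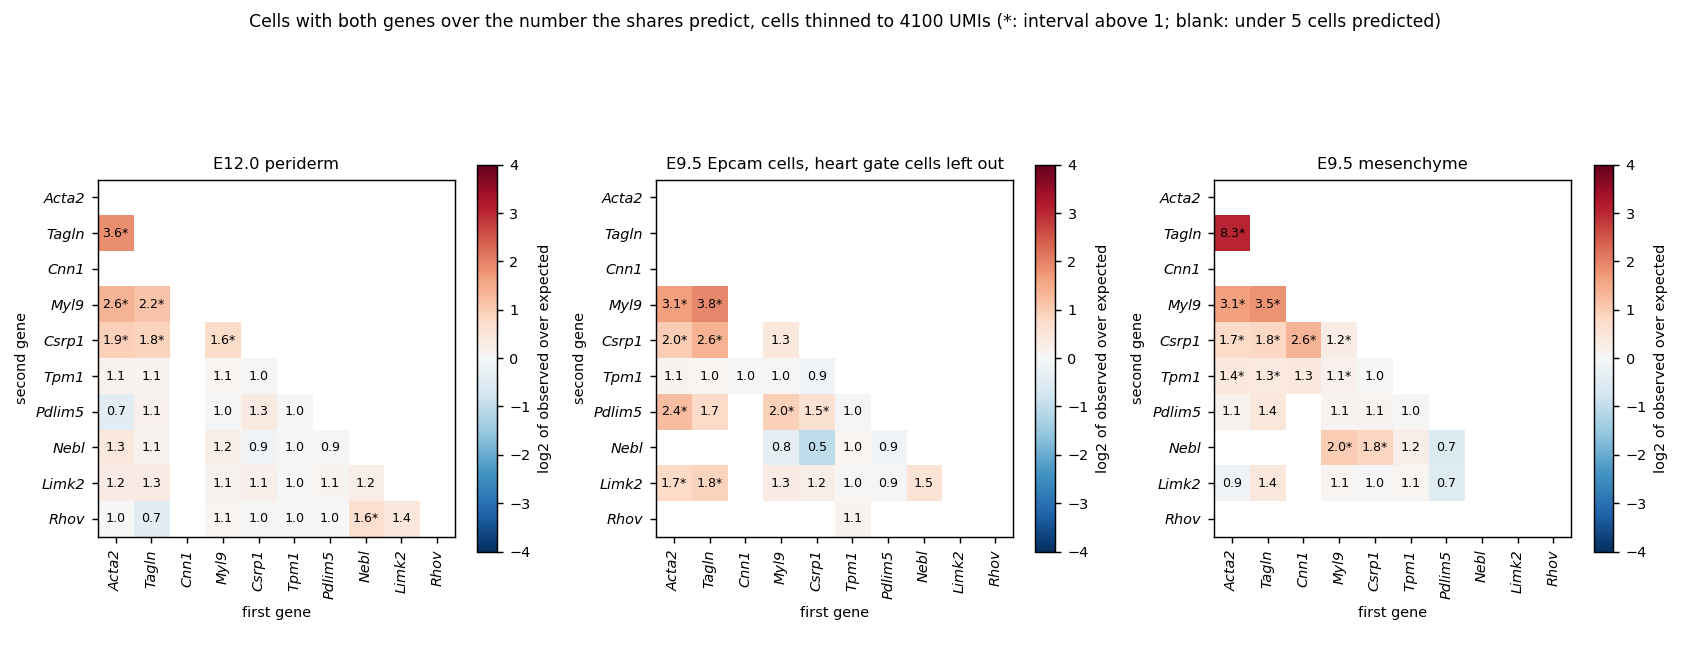
Number of cells with both genes over the number that their shares predict, in cells thinned to 4100 UMIs, for E12.0 periderm, E9.5 Epcam cells without heart gate cells, and E9.5 mesenchyme, with colour giving the log2 of the printed ratio. A star marks an interval above 1 and a blank field under 5 cells predicted. Acta2 with Tagln is at 3.61 in periderm and 8.30 in mesenchyme, and the stars cluster among Acta2, Tagln, Myl9 and Csrp1. The ratio can be greater where genes are rarer, so it is not compared between panels.

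Periderm cells were therefore set apart by whether the thinned cell had a UMI of Acta2 or Tagln, which 96 of 396 (24.2%) did. What follows is a description, since these genes chose the cells. The study placed Tagln and Acta2 in some periderm cells and not in other suprabasal cells. How many of the cells without them were suprabasal was not tested. The 96 cells had Myl9 at 239 CPM against 50.7 in the 300 others (log2 ratio 2.23, interval 1.90 to 2.58), Tpm1 at 1951 against 905 (1.11) and Csrp1 at 138 against 65.4 (1.08). Limk2 differed less, at 230 against 174 (0.41), and Pdlim5, at 78.4 against 65.4, had an interval that spans 0 (-0.18 to 0.69). Rhov went the other way, at 29.4 against 47.7 CPM (-0.70, interval -1.40 to -0.05), and Nebl was at 122 against 145 (-0.24, interval -0.58 to 0.08). Myl9, Tpm1 and Csrp1 were thus high in Acta2 or Tagln cells, and Pdlim5, Nebl and Rhov were at similar or lower values there. Limk2 lay between them and also met the size criteria as higher.

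Lists were read in the same split, in which 11.7% of 6725 genes were higher and 12.1% of 6503 lower in the 96 cells by the size criteria. Of the 12 smooth muscle contractile genes 4 were higher, Cald1, Tpm2, Flna and Vcl, and the intervals of Smtn, Synpo2 and Mylk span 0. Actg2 (6 UMIs against 1) and Lmod1 (6 against 3) had intervals above 0, but a UMI in under 15% of the cells. All 3 other tropomyosins and 3 of 4 transgelin and calponin relatives were higher, as were 4 of 9 genes of myosin and its light chain control. In other lists 2 of 5 actins, 2 of 8 LIM-protein relatives and 1 of 14 LIM kinase and cofilin genes were higher. So were 1 of 4 genes of serum response factor and its cofactors, 5 of 10 targets of it and YAP, and 0 of 3 nebulin-family genes. Lower in these lists were Pdlim4, Pak4 and Cyr61. Tpm2, Flna and Vcl each stand in more than 1 of the lists and are counted in each. Values are given for Cnn2, a calponin of nonmuscle cells (402 against 167 CPM), Cald1, the actin-binding caldesmon (1078 against 564), Vcl, the focal adhesion protein vinculin (212 against 102), Flna, the actin cross-linker filamin A (458 against 246), and Tpm2, a beta-tropomyosin (47.8 against 11.6). Myh11 had 10 UMIs in the 96 cells and 0 in the 300, and after thinning was found in 3.1% of the 96. The periderm genes Ppl (342 against 358 CPM), Pkp1 (209 against 224), Grhl3 (131 against 124) and Sfn (623 against 613) had log2 ratios whose intervals span 0. Ppl, Pkp1 and Grhl3 are the gate genes by which all cells of both sets were chosen, so their similar levels are not read. Of the 16 periderm and suprabasal markers, the gate genes among them, 1 was higher, Krt17 (260 against 117 CPM), and 1 lower, Krt8 (80.8 against 121). The 7 mesenchyme markers summed to 4.90 CPM in the 96 cells and 8.17 in the 300, with 2 UMIs each of Prrx1 and Col1a2 in the 96, and the 5 endothelial markers to 0 and 1.72. The 7 smooth muscle and pericyte markers summed to 77.1 against 63.2. Of 7 immediate-early genes 6 were lower in the 96 cells, with a sum of 975 against 1711 CPM and Fos, for example, at 209 against 388, and their part in the split was not tested. Median depth was 7507 against 7051.5 UMIs, doublets were 13.5% against 14.7% and cells of the dental gate 26.0% against 15.7%.

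Relatives of the 10 genes and their partners were taken from lists, read against the same 11.8% background. Of the transgelin and calponin relatives 3 of 4 were higher in periderm, Cnn2 (226 against 93.0 CPM), Cnn3 (322 against 159) and Tagln2 (59.4 against 27.3). None of 5 other actins was. Actb was at 3150 against 2657 CPM, Actg1 at 2498 against 2032, and Actg2, the gamma actin of smooth muscle, had 8 UMIs in periderm and 11 elsewhere, the latter over many more cells. Of 3 other tropomyosins Tpm4 was higher (388 against 236), and of 8 LIM-protein relatives 3 were, Csrp2 (188 against 87.8), Pdlim4 (86.0 against 61.5) and Pdlim7 (42.6 against 26.3). No other nebulin-family gene met the criteria, and Lasp1 was at 73.2 against 94.0 CPM.

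Of 14 genes of the LIM kinase and cofilin pathway 2 were higher, Dstn, which encodes the actin-severing protein destrin (813 against 348 CPM), and Pak1, a kinase upstream of LIM kinases (99.8 against 73.3). Limk1, the paralog of Limk2, was at 17.8 against 15.4 CPM, and cofilin itself, Cfl1, at 901 against 839. Of 9 genes of myosin and its light chain control 4 were higher, and Myh14, a nonmuscle myosin II heavy chain, was the farthest apart (68.6 against 7.71 CPM).

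Of 12 smooth muscle contractile genes, Flna (299 against 194 CPM) and Vcl (131 against 63.0) met the criteria as higher, and the median log2 ratio of the list was 1.2. Others were found in under 15% of periderm cells, which the criteria leave out, among them Myh11 and Actg2, at 2.45 against 0.147 CPM (log2 ratio 4.06, interval 2.54 to 5.50). Des and the cofactor Myocd had 0 UMIs in periderm, and Cald1 was at 688 against 751 CPM. Of serum response factor and 3 cofactors, Mkl1 was higher (25.4 against 17.6), and Srf was at 63.1 against 56.5 CPM. Of 10 target genes of serum response factor and YAP, 4 were higher, led by Fhl2 (30.6 against 3.23), and 2 were lower, Cyr61 (42.9 against 113) and Fhl1 (21.4 against 28.0). Flna and Vcl stand in both of these lists.

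At E9.5 the 10 genes were read in gated cells, since no sort had been done. Epcam cells (4816, at least 1 UMI of the epithelial adhesion gene Epcam) were taken as epithelial, cells with at least 2 Sfn UMIs (352) as those with the surface epithelium gene Sfn, Cdh5 cells (500) as endothelial, and cells with at least 2 UMIs of Twist1 and Prrx1 (7220) as mesenchyme. The gates overlap. Of the 7220 mesenchyme cells 1391 also passed the Epcam gate, and of the 500 Cdh5 cells 205 also passed the mesenchyme gate. The Sfn gate did not mark periderm in the sense used at E12.0. Just 3 of its 352 cells passed the E12.0 periderm gate, Pkp1 had 0 and Grhl3 3 UMIs in it, and of 15 periderm and suprabasal markers Ppl, Krt8, Krt18 and Krt19 were higher than in other Epcam cells.

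Of 7603 genes with a UMI in at least 15% of Sfn cells, 7.63% met the criteria as higher than in the 4477 other Epcam cells. Of the 10 genes, 4 were found in that share of cells and 1 was higher. It was Limk2, at 21.9 against 15.4 CPM (log2 ratio 0.51, interval 0.21 to 0.79), with a UMI in 27.3% of cells against 18.7%. Tpm1, at 1118 against 889 CPM, stayed under the fold criterion at 1.26-fold. Myl9 (21.5 against 21.8 CPM), Csrp1 (20.8 against 24.9) and Pdlim5 (12.2 against 13.5) were at or under the level of the other epithelial cells. Rhov had 3 UMIs in the Sfn cells, 0.601 CPM against 0.732, and Nebl was at 8.62 against 5.69.

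Acta2 and Tagln in Sfn cells rested on very few cells. Acta2 was at 44.3 CPM [38.7 to 50.5] against 14.8 and Tagln at 38.7 against 15.9, yet the shares of cells with a UMI were 7.67% against 7.84% and 6.82% against 8.09%. Of 352 cells 325 had no Acta2 UMI, 2 cells held 50% of its UMIs and the highest had 75. Without the 5 Sfn cells with the most UMIs Acta2 was at 5.71 CPM (28 UMIs, log2 ratio -1.37) and Tagln at 4.88 (24 UMIs, -1.70). No cell was left out of the other Epcam cells, so these ratios fall by construction and their direction is not read. All 25 UMIs of Cnn1 in Sfn cells came from 2 cells. None of 8 heart and skeletal muscle markers met the criteria in Sfn cells and 3 were at 0, but they summed to 66.4 CPM against 42.8 in other Epcam cells, with Actc1, cardiac alpha-actin, at 25.9 against 3.09, and their part in the result was not tested. None of the Sfn cells passed the heart gate. With at least 5 Sfn UMIs 6 cells were left, all with Epcam, in which Acta2 was at 1629 CPM (131 UMIs), Tagln at 1679 (135 UMIs) and Actc1 at 1293 (104 UMIs), and Rhov, Limk2 and Nebl had 0 UMIs. Of the 6 cells, 3 had Acta2, 2 had Tagln and 2 had Actc1, with up to 75, 89 and 96 UMIs in a cell. These levels thus also rest on very few cells.

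**Figure D5:**
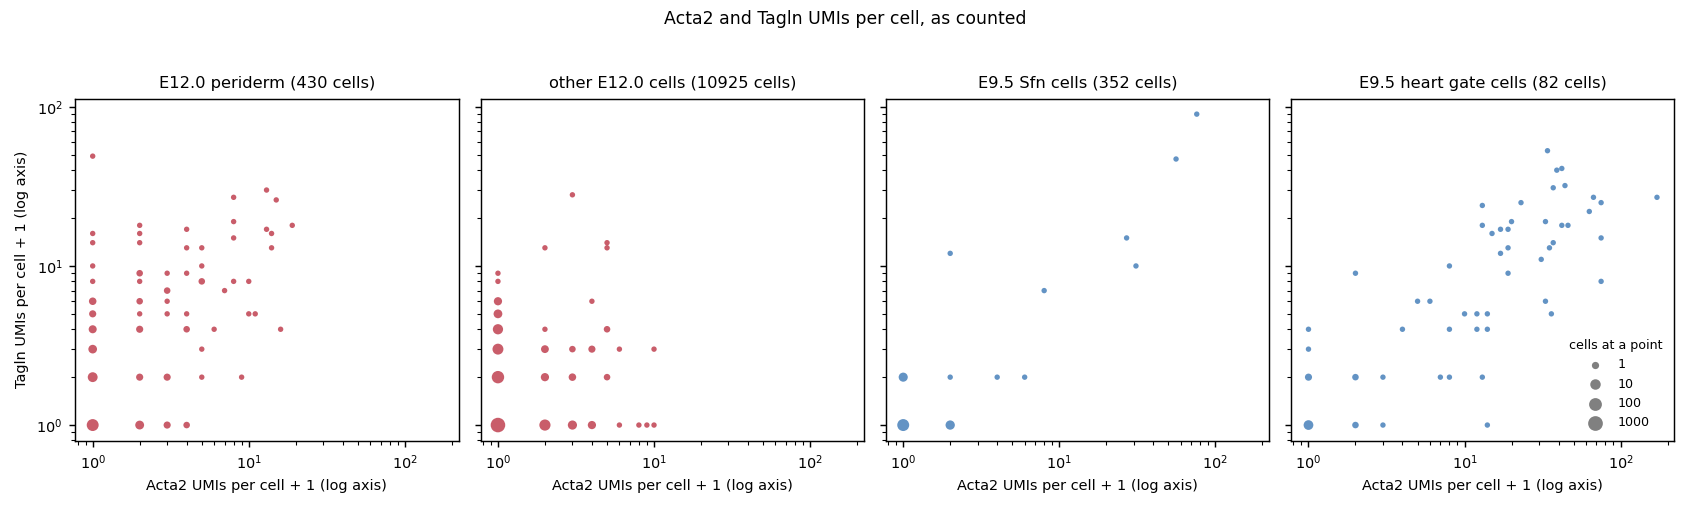
Acta2 against Tagln UMIs per cell plus 1, both on log axes, in E12.0 periderm (430 cells), other E12.0 cells (10925), E9.5 Sfn cells (352) and E9.5 heart gate cells (82), with dot size for the number of cells at a point. In E12.0 periderm the cells with both genes reach 18 Acta2 and 29 Tagln UMIs, and the cell with 48 Tagln UMIs has no Acta2, while the E9.5 Sfn panel has its 2 highest cells alone at the upper right, up to 75 Acta2 and 89 Tagln UMIs.

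In the whole Epcam gate Limk2 (15.9 against 10.9 CPM) and Tpm1 (906 against 406) were higher than in other E9.5 cells, and Myl9 (21.7 against 31.6), Csrp1 (24.6 against 48.7) and Pdlim5 (13.4 against 18.2) were lower. These are 2 of the 5 and 3 of the 4 genes found in enough cells to be called higher or lower. Of all such genes 17.9% were higher and 6.54% lower. Acta2 was at 17.0 CPM in Epcam cells and 32.0 in the others, and Tagln at 17.6 and 30.4, with a UMI in under 15% of cells. Without the heart gate cells described next, the log2 ratio was -0.61 for Acta2 and -0.63 for Tagln, from -0.92 and -0.79 with them. In the whole Epcam gate the CPM of Acta2, Tagln, Myl9 and Csrp1 were thus below those of the other cells, with only Myl9 and Csrp1 meeting the criteria. Acta2 had 0 UMIs in 4126 of the 4477 Epcam cells outside the Sfn gate and in 6616 of the 7220 mesenchyme cells. It had 10 UMIs or more in 18 and 68 of them. The Epcam gate did not leave out endoderm, as the study's own epithelial subset did.

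Endothelial cells had a profile of their own. In Cdh5 cells Csrp1 was at 109 CPM against 35.7, with a UMI in 65.0% of cells against 31.8%, Pdlim5 was at 39.0 against 15.2 and Limk2 at 18.8 against 12.6. Myl9 (16.3 against 28.2 CPM) and Tpm1 (393 against 616) were lower. These are 3 of the 5 and 2 of the 4 genes found in enough cells to be called higher or lower. Of all such genes 18.4% were higher and 15.4% lower. In the 238 cells that passed the Cdh5 gate and no other, Csrp1 was at 160 CPM. In mesenchyme the median over all genes was itself shifted, by -0.13 on the log2 scale. There Pdlim5 was higher (17.8 against 13.5 CPM) and Tpm1 lower (418 against 979), and Csrp1, at 42.0 against 33.2, was just under the fold of 1.3. Of the genes found in enough cells, 1 of 5 was thus higher and 1 of 3 lower, against 10.2% and 19.2% of all such genes.

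Among the groups in the plot of levels, Acta2, Tagln, Cnn1, Myl9 and Tpm1 were highest in the 82 E9.5 cells of the heart gate, with at least 5 UMIs in sum of the heart muscle genes Tnnt2 and Myl7 and the cardiac factor Nkx2-5. The gate was mixed. Nkx2-5 itself was higher in Epcam cells (28.0 against 6.71 CPM), and 42 of the 82 cells, 36 of them with Epcam, had fewer than 2 UMIs of Tnnt2 and Myl7. The other 40 cells, 10 of them with Epcam, had Actc1 at 928 CPM, against 4.47 in the 42. Over all 82, Acta2, which the early heart uses before its cardiac actin takes over, was at 1050 CPM [994 to 1109] against 18.4 in other cells, and had a UMI in 61.0% of them. It was at 2233 CPM in the 40 cells, each of which had both Acta2 and Tagln, and at 65.6 in the 42, of which 27 had neither. Tagln was at 513 CPM against 21.7, and Cnn1 at 41.5 against 0.752. Nebl was at 68.3 CPM against 3.65 and Tpm1 at 2272 against 594. With Myl9 (199 against 26.3), Csrp1 (100 against 38.6), Pdlim5 (61.0 against 16.0) and Limk2 (17.1 against 12.9), 9 of 10 genes met the criteria as higher, where 25.9% of genes did, though the interval of the log2 ratio of Limk2 spans 0 (-0.29 to 1.02). Rhov had 1 UMI. Nebl was at 145 CPM in the 40 cells and 4.47 in the 42, and Tpm1 at 3625 and 1146. The 82 cells, with 0.740% of UMIs, held 29.9% of the Acta2, 29.1% of the Cnn1 and 12.2% of the Nebl UMIs of the E9.5 library, and 46 of them also passed the Epcam gate.

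Joint detection was read in the same way at E9.5. In mesenchyme Acta2 and Tagln were found together in 124 thinned cells where 14.9 were predicted, a ratio of 8.30, and 12 of 27 pairs had an interval above 1. In Epcam cells without heart gate cells, 43 cells had both where 4.98 were predicted (8.64), and 9 of the 27 pairs with at least 5 predicted were above 1, led by Tagln with Myl9 (3.78) and Acta2 with Myl9 (3.14). In the Sfn cells 5 cells had Acta2 and Tagln where 0.382 was predicted, a ratio of 13.1 (4.27 to 30.3), but 0 of 7 pairs with 5 predicted cells had an interval above 1. The interval takes the shares as known, and its upper limit here is above what the shares allow. The Cdh5 cells had 0 of 10 pairs above 1. Of thinned cells with Acta2, 43 of 151 in Epcam cells without heart gate cells and 5 of 11 in Sfn cells also had Tagln. The ratios can be greater where genes are rarer and are not compared between groups. Myl9 with Acta2, and Myl9 with Tagln, thus had intervals above 1 in E12.0 periderm, the other E12.0 cells, E9.5 Epcam cells without heart gate cells and E9.5 mesenchyme. The last 2 groups share cells, since 1391 of all 4816 Epcam cells also passed the mesenchyme gate. Joint detection was not read in cells of the Epcam gate alone, so these values do not place the pairs in epithelium.

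Cells with at least 10 UMIs of Acta2 and Tagln in sum were counted in both libraries. At E12.0 there were 34, of which 29 (85.3%) were periderm and 4 were called doublets. In them Krt17 was at 460 CPM against 28.9 in all others, Krt14, the basal keratin, at 1693, and all mesenchyme markers had 0 UMIs. At E9.5 there were 199, of which 99 passed only the mesenchyme gate, 39 were heart gate cells, 51 passed the Epcam gate with or without others and 6 were Sfn cells. These counts are of cells as sequenced, and the E9.5 cells had the higher median depth (13460.5 UMIs per cell, against 6349). Among cells thinned to 4100 UMIs, those with at least 10 UMIs were 16 of 10331 (0.155%) at E12.0, 11 of them periderm, and 55 of 10985 (0.501%) at E9.5, 21 of them of the heart gate.

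The E12.0 periderm gate, applied to E9.5, passed 24 cells, all with Epcam. In these 6 of 10 genes met the criteria as higher than in other Epcam cells, where 30.9% of genes did. Acta2 was at 103 CPM [73.9 to 141] against 16.5, Tagln at 191 against 16.6 and Tpm1 at 1785 against 901. The Acta2 and Tagln values came from 40 and 74 UMIs. Of the 24 cells, 5 had at least 10 UMIs of the 2 genes in sum, so these levels rest on few cells. Csrp1 (56.9 against 24.4), Limk2 (28.5 against 15.8) and Nebl (15.5 against 5.86) were the others. Rhov had 0 UMIs, where 3 UMIs would be 7.76 CPM.

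Side by side at the 2 stages, and with stage, sort and library not to be told apart, the genes of E12.0 periderm and E9.5 gate cells did not all differ alike. The periderm gate was used in both, though its 3 genes need not weigh alike at the 2 stages. Under it Acta2 was at 82.4 CPM at E12.0 and 103 at E9.5, and Tagln at 187 and 191. The E9.5 values rest on 40 and 74 UMIs in 24 cells. Their log2 ratios had intervals that span 0, as had that of Csrp1 (82.4 and 56.9 CPM, 0.53, interval -0.10 to 1.23). Tpm1 was lower at E12.0 (1173 and 1785, log2 ratio -0.61, interval -0.72 to -0.49). Limk2 was at 198 and 28.5, Nebl at 152 and 15.5, Myl9 at 99.8 and 23.3 and Pdlim5 at 67.4 and 15.5. Rhov was at 45.6 CPM at E12.0 and had 0 UMIs at E9.5, a 5.88-fold difference with 3 UMIs put in place of 0. The exact interval of its log2 ratio began at 2.24 and had no upper limit. With the Sfn gate in both libraries (3212 cells at E12.0 and 352 at E9.5) Acta2 was lower at E12.0 (15.1 and 44.3 CPM). Tagln was at 42.1 and 38.7, with an interval of the log2 ratio that spans 0, and Tpm1 was lower (781 and 1118). The E9.5 values of Acta2 and Tagln rested on very few cells. Without the 5 E9.5 cells with the most UMIs of the gene they were 5.71 and 4.88 CPM. No cell was left out at E12.0, so these are not set against the E12.0 values. Limk2 was at 69.9 and 21.9, Nebl at 31.1 and 8.62 and Rhov at 6.93 and 0.601 CPM, higher at E12.0 under this gate too.

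Background was read in E9.5 blood cells (79, of which 65 had 4100 UMIs, median 17042), which were assumed to make little of these transcripts. After thinning, Acta2, Tagln, Myl9, Csrp1 and Pdlim5 were each found in 1.54% of blood cells, Limk2, Cnn1, Rhov and Nebl in 0, and Tpm1 in 32.3%. The assumption may fail for Tpm1, and whether its share is background or expression in blood cells was not tested. With 0 of 65 cells the exact 95% binomial interval reaches 5.52%. The thinned shares in E12.0 periderm lay above the blood share for the 9 genes other than Cnn1, which was found in 0.253% of periderm cells. The 1.54% is 1 cell, with an exact 95% binomial interval from 0.0389% to 8.28%, and comes from the other library. The 1.01% of E12.0 cells outside periderm with Acta2 lies within that interval, so these blood cells do not settle whether it is above background.

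The genes with the most similar pattern over 15 overlapping groups of both libraries were found by Pearson's r of log2(CPM + 5) among 8813 genes with at least 20 CPM in a group. The groups share cells and libraries, so r is a description. Rhov was nearest to Lgals3 and Paqr5 (r = 0.994 for both), with the gate gene Grhl3 at 0.948, and Limk2 to Jup, the desmosome gene plakoglobin (0.972). Acta2 was nearest to Nexn, an actin-binding protein of muscle (0.896), Cfc1 (0.891) and Lmod1 (0.867), and Cnn1 to Acta1, skeletal alpha-actin (0.981). Among the 10 genes, Acta2 was at 0.826 with Tagln and 0.864 with Myl9 but at -0.195 with Limk2, and Rhov was at 0.737 with Nebl.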

How the data were processed

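Single cells of mouse mandibular arches were sequenced with 10x Genomics 3′ v3 chemistry, 1 library per stage. The authors deposited UMI counts per gene and cell barcode, without normalization. Per the labels and the study's methods, reads were aligned to GRCm38 (mm10) with Cell Ranger 2.0.0, whereas the file headers name Cell Ranger 3.1.0 at E12.0 and 6.1.2 at E9.5. Barcodes had already been selected as cells. Table columns of other samples numbered 0.

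Cells were kept by the study's filter (200 to 5500 genes, at most 10% mitochondrial UMIs). Doublets were called with Scrublet in scanpy 1.11.5 (661 at E12.0, 331 at E9.5) and kept. Counts were summed per gated group with numpy 2.4.6, pandas 2.3.3 and scipy 1.17.1 (Python 3.11.15), and drawn with matplotlib 3.10.9. CPM have exact Poisson intervals, ratios of CPM exact conditional intervals and shares exact binomial (Clopper-Pearson) intervals, all at 95%. In a ratio, a group with 0 UMIs was given 3 counts. Cells were thinned to 4100 UMIs with a seed of 1, which left out 1024 and 1759 shallower cells. Joint detection was the share of cells with both genes over the product of the shares. Its interval is the binomial interval of the joint share divided by that product, so error in the shares themselves is left out. The log2 ratios and their intervals were tested on simulated Poisson sums of groups, which hold no spread between cells. Thinning was checked by the UMI total of the thinned cells. Gates, doublet calls, size criteria and joint detection were not tested on simulated data. Gates were set on named genes, not on clusters, so no cell type was assigned beyond its gate. Promoter and gene tables were matched by symbol and gene identifier.

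The 10 genes, the gene lists and the gates were chosen with earlier results of these data known. Named beside the 10 are their relatives and up to 4 genes of each list with the largest ratio at 5 CPM or more, and for similarity the nearest genes by r. Genes named in other contexts were chosen after their values were seen. The result of 1 gene list is not reported here. Alternatives changed the gates, the cell filter, the doublets, the scaling, the weighting of cells, the size criteria or the thinning. Leaving out heart gate cells, splitting that gate by Tnnt2 and Myl7, leaving out the 5 cells with the most UMIs, and the other gates between stages, were added after the data were seen. A group with fewer UMIs gives wider intervals, which stand beside the values.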

Additional observations from a re-analysis of the deposited data

How the results depend on the processing

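Values were recomputed with 1 choice changed at a time. In E12.0 periderm 9 genes met the size criteria, and the other settings gave 7 (a UMI in 25% of cells) to 9. The log2 ratio over 12 settings was 4.00 to 4.54 for Acta2, 3.33 to 4.17 for Tagln, 2.23 to 2.67 for Myl9, 2.02 to 2.68 for Csrp1, 1.77 to 2.31 for Limk2, 1.72 to 2.24 for Pdlim5, 0.57 to 0.89 for Tpm1, 5.49 to 6.77 for Rhov, 3.32 to 4.15 for Nebl and 1.34 to 3.79 for Cnn1. In E9.5 Sfn cells the 1 higher gene became 0 with at least 1 Sfn UMI, with no upper gene limit, with a fold of 2 and in thinned cells, 6 with the Ppl, Pkp1 and Grhl3 gate and 7 with at least 5 Sfn UMIs, which left 6 cells. Without the 5 Sfn cells with the most UMIs of each gene 3 genes were lower in Sfn cells instead of 0. No other Epcam cell was left out there, so that direction is not read. In Epcam cells (2 higher, 3 lower) a fold of 2 gave 1 and 0, and a UMI in 25% of cells and thinned cells each gave 1 and 1. In Cdh5 cells the 2 lower became 0 with a fold of 2, and 1 with 25% of cells and in thinned cells. In mesenchyme (1 higher, 1 lower) cells of 1 gate gave 2 and 2, no upper gene limit 0 and 2, and median-of-ratios scaling 2 higher, while equal weighting of cells, a fold of 2, 25% of cells, thinned cells and leaving out the 5 cells with the most UMIs gave 0 higher. Acta2 with Tagln in Sfn cells had a ratio of 41.9 with at least 2 UMIs of each (13.1 as reported), and 2 pairs had intervals above 1 without thinning instead of 0. The causes were not tested. Of the recomputed log2 ratios, 441 stayed within the interval of the reported ratio and 149 did not. No paired analysis was possible because each stage was 1 library, and for the same reason no replicate could be left out. Depth limits Cnn1 at E12.0 and Rhov in E9.5 Sfn cells, which had too few UMIs for a direction.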
